A study of Mus musculus with 8 samples.

Results

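This section describes the genes for carriers of amino acids, small peptides and neurotransmitters in mouse dorsal root ganglia, which lie along the spinal cord and house the cell bodies of sensory neurons. The members were the genes whose symbol carries a solute carrier (Slc) number of family 1, 6, 7, 15, 17, 18, 32, 36, 38 or 43, which gave 76 of the 40800 genes in the deposited table. Ganglia of 4 wild-type C57BL/6 mice were set against those of 4 mice with a Tmem184b gene trap on both alleles (homozygous, C57BL/6 background), and all 8 animals were 6 months old. A gene trap is an inserted cassette that captures splicing and cuts a transcript short. It is carried by every cell of the animal, so neurons, glia and other cells of the ganglion all had the mutant genotype. The question was how the RNA of these carriers differed in mutant ganglia. The labels give no sex, litter or batch, and the sample numbers (wild types 1, 3, 4 and 8, mutants 1 to 4) are used here as names.

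Solute carriers move small molecules across membranes, mostly by coupling them to sodium, proton or chloride gradients or by exchanging one substrate for another. In nervous tissue, families 1 and 6 take glutamate, GABA, glycine, taurine, creatine and monoamines back into cells. Families 18 and 32 and several members of family 17 fill synaptic vesicles. Families 7, 36, 38 and 43 supply cells and lysosomes with amino acids, and family 15 carries dipeptides and tripeptides with protons. Most dorsal root ganglion neurons release glutamate, and the satellite glia wrapped around them take up glutamate and GABA and make glutamine.

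The libraries held 6177680 to 7975562 reads, as recovered from the deposited values, and 1 read was worth 0.125 to 0.162 CPM (counts scaled to a fixed library total, the usual per-million unit). Tmem184b itself was at 7.36 to 7.51 log2 CPM in wild type and 2.47 to 3.10 in mutant, a drop that goes with the labels in all 8 samples. Xist RNA was near 0 in wild type 3 and in mutants 3 and 4 and high in the other samples, so the groups held unequal numbers of males. Most genes of 2 marker lists were lower in mutant: those of the non-peptidergic neuron class NP1 (7 of 7 called lower) and of the itch-related class NP3 (7 of 8). Of 9 pan-neuronal markers 2 were called lower and 2 had differences above 0, with a median log2 difference of -0.06. Satellite glia markers were above 0 in 9 of 9 differences, beside 64.4% of all tested genes, with 2 called, Glul among them. Their median log2 difference was 0.25, beside 0.07 over all tested genes. Summed levels were 2378 to 2935 CPM in wild type and 2668 to 3654 CPM in mutant. The largest part of each sum was Apoe, which was not called (1263 to 1597 CPM in wild type and 1372 to 1946 CPM in mutant). Markers of sheath cells (meningeal or epineurial), fibroblasts, macrophages and endothelium leaned the same way (9 of 9, 7 of 7, 7 of 8 and 5 of 6 above 0). Their median log2 differences were 0.59, 0.34, 0.47 and 0.24. Nonmyelinating Schwann cell markers were above 0 in 3 of 5, with a median of 0.01. In whole ganglia, a change in the number of cells of a type and a change in RNA per cell cannot be told apart.

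Of the 76 members, 67 had reads in some sample and 55 passed the filter on low values (log2 CPM above 0 in at least 4 samples) and were tested with limma. Over all 15030 tested genes 5.46% were called at a Benjamini-Hochberg adjusted p under 0.05, 2.81% higher and 2.64% lower in mutant. Among the members 10 of 55 (18.2%) were called, 9 higher (16.4%) and 1 lower (1.82%). The higher ones included Slc1a5, Slc6a6, Slc7a2, Slc15a2, Slc36a2, Slc38a2, Slc38a11 and Slc43a3, and the lower one was Slc36a1. The median log2 difference of the 55 members was 0.06 and 61.8% were above 0, beside 0.07 and 64.4% over all tested genes. Wild-type and mutant samples did not overlap in 13 members (23.6%), 10 higher and 3 lower, against 12.4% of all tested genes (7.5% higher and 4.92% lower). Of the 45 members not called, 28 had a 95% confidence interval inside ± 0.5 on the log2 scale and 17 did not.

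**Figure D1:**
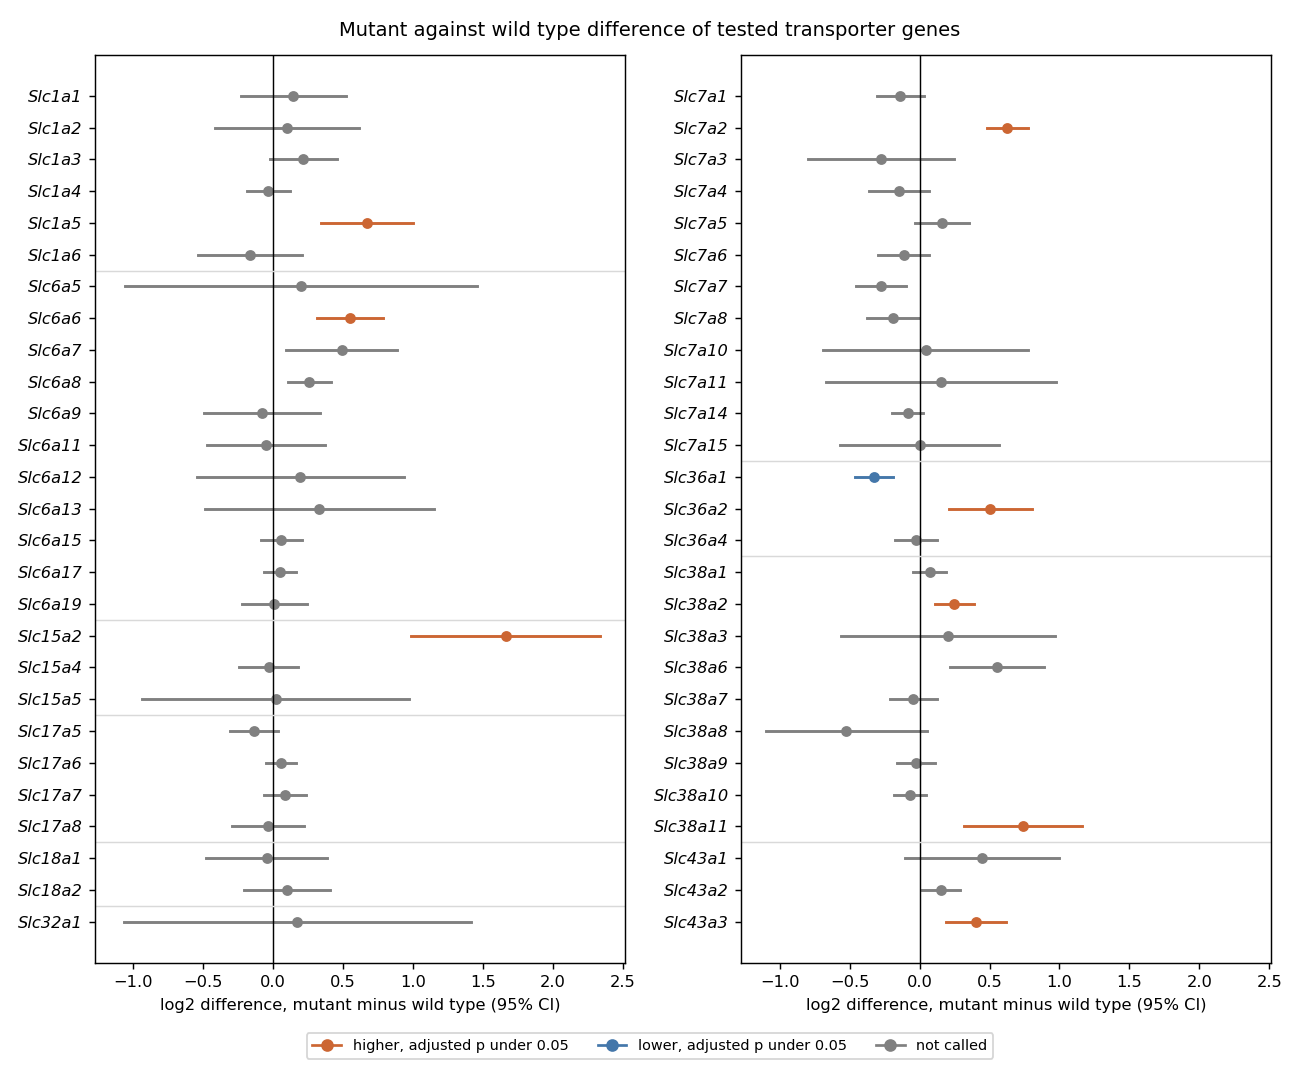
Log2 difference, mutant minus wild type, for tested members, with its 95% confidence interval, grouped by family; orange marks members called higher, blue the one called lower and grey those not called. The orange intervals lie above 0, Slc36a1 lies below it, and Slc15a2 stands apart at 1.66.

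The count of members called higher depended on single samples, and so did that of all genes. Leaving out wild type 1 gave 4 such members and leaving out wild type 8 gave 5. The counts were 3, 4 and 5 when mutant 1, mutant 2 or mutant 4 was dropped, and 2 members were called lower once wild type 4 was dropped. Over all genes, 423 were called higher in the main fit. That count fell to 171 without wild type 1, 218 without wild type 3 and 309 without wild type 8. It fell to 181, 265 and 204 without mutant 1, 2 or 4, and rose to 571 without wild type 4 and 501 without mutant 3. When each sample was centred on its median gene, which moved the median difference of all genes from 0.07 to -0.03, 5 members were called higher and 2 lower, and the share of higher calls among all genes went from 51.6% to 22.4%. With Xist as a covariate 6 members were called higher and 1 lower. Slc7a2 was called in all 20 alternatives, Slc15a2 and Slc36a1 in 19, Slc6a6 in 17 and Slc1a5 in 15. Called less often were Slc38a2 (in 9), Slc43a3 (8), Slc36a2 (7) and Slc38a11 (6).

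**Figure D2:**
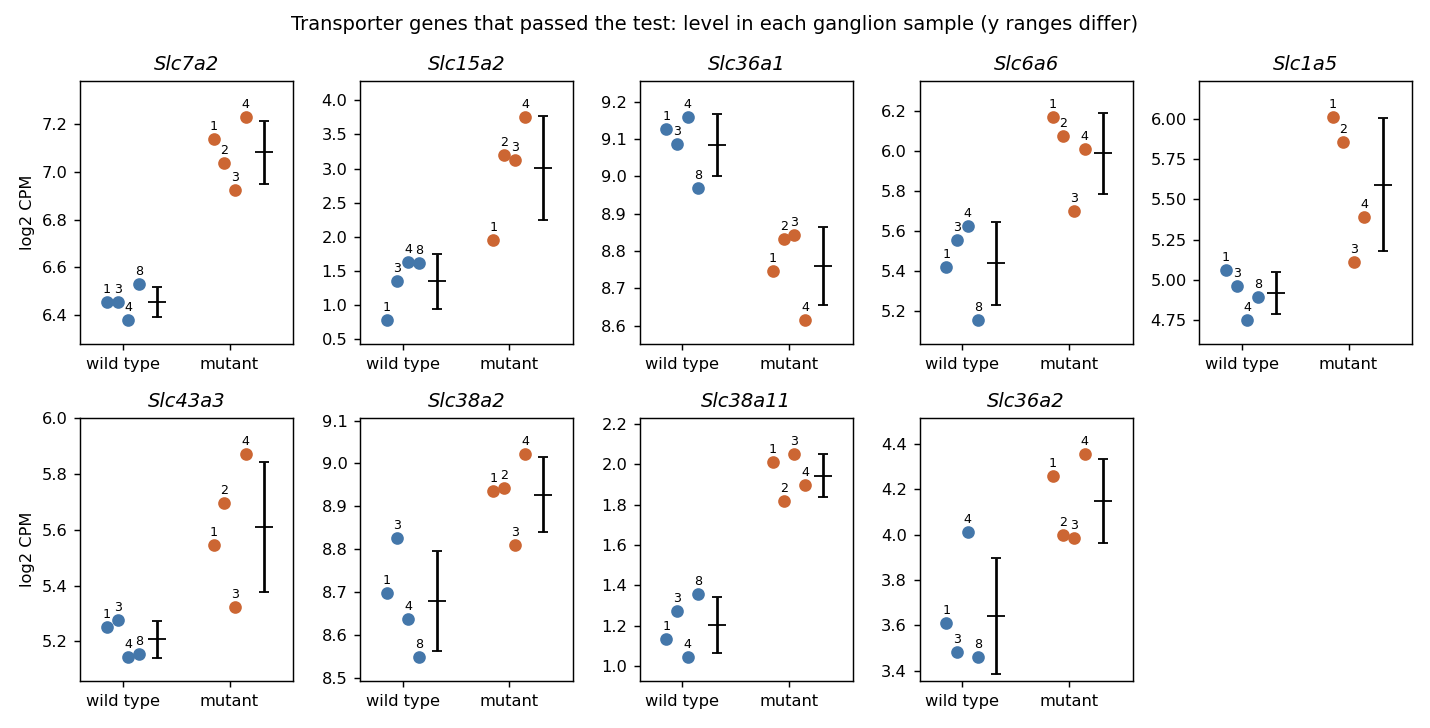
Level (log2 CPM) of called members in each of the 8 samples, numbered as in the labels; the horizontal line is the group mean, the bar its SD (n = 4 per group), and the y range differs between panels. The groups overlap in the panels of Slc38a2 and Slc36a2 and are apart in the others shown.

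Level differed widely between members. Per kilobase of merged exons, the highest was Slc36a1 (86.8 CPM per kb over the 8 samples), followed by Slc17a6 (51.01), Slc38a2 (50.8), Slc6a17 (36.7), Slc17a7 (35.7) and Slc7a14 (30.97). The levels of Slc17a6 and Slc38a2 differed by less than the spread between samples. The lowest tested member was Slc15a5 at 0.191 CPM per kb. The called members ran from Slc38a11 (0.646) and Slc15a2 (0.737) up to Slc36a1, and those below Slc38a11 held no call.

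**Figure D3:**
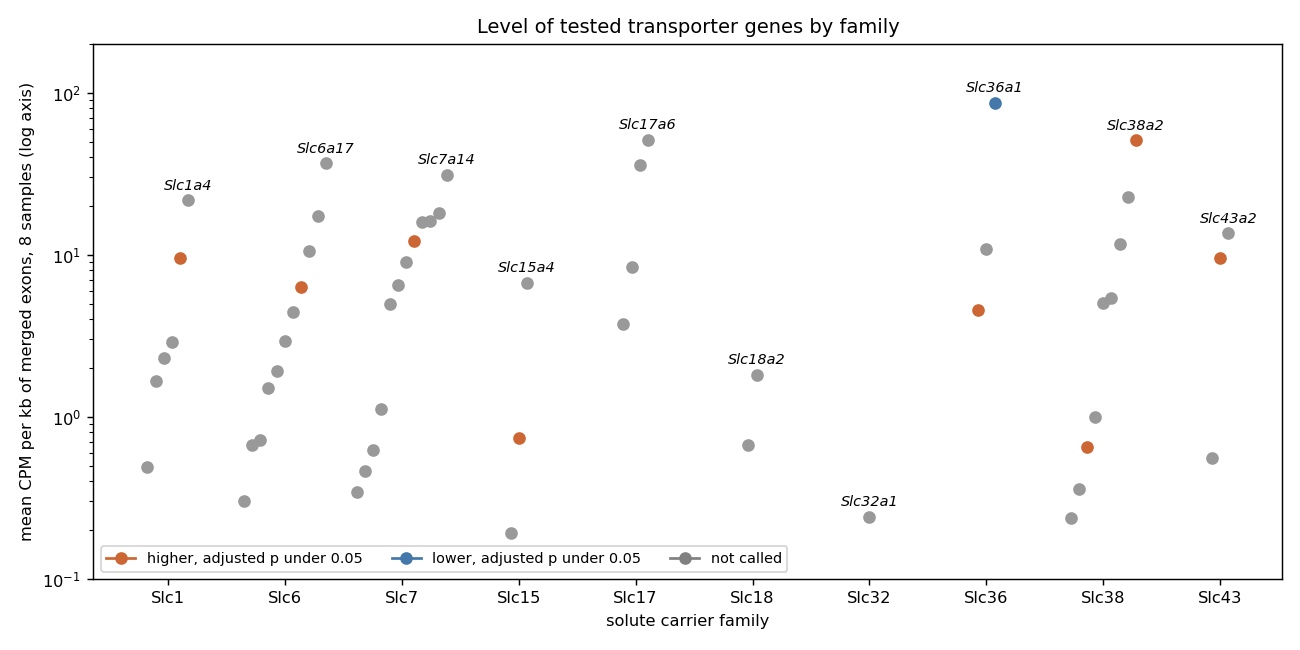
Mean level of tested members over the 8 samples, in CPM per kilobase of merged exons on a log axis, by family, with the highest member of each family named. The called members (orange higher, blue lower) lie between 0.646 and 86.8 CPM per kb.

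Family 15, the proton-coupled peptide carriers, held the member with the largest difference. Slc15a2 (ENSMUSG00000022899, chr16:36750177-36784962, minus strand; all positions are on GRCm38) encodes PEPT2, a high-affinity carrier of dipeptides and tripeptides that has been described in glia. It was at 1.43, 2.25, 2.82 and 2.78 CPM in wild types 1, 3, 4 and 8, and 3.59, 8.89, 8.47 and 13.2 CPM in mutants 1 to 4. All 4 mutants lay above all 4 wild types, but mutant 1 was close to the wild-type range and mutant 4 was the highest. Group means were 2.32 ± 0.646 CPM in wild type and 8.53 ± 3.92 CPM in mutant (SD, n = 4 each), and the log2 difference was 1.66 (SE 0.317, limma adjusted p = 0.00816). These values rest on 9 to 92 reads per sample, and without a trend of variance with level the adjusted p was 0.0833. A stretch of 103 bases is 97.1% identical to a transcript of Gm47407. Slc15a4, an endolysosomal carrier of histidine and peptides, was not called, at 32.3 to 41.8 CPM in wild type and 31.7 to 40.1 CPM in mutant (-0.03, 95% CI -0.24 to 0.18). Slc15a5 was at 0.148 to 0.877 CPM in wild type and 0.154 to 1.05 CPM in mutant. Slc15a1, the intestinal peptide carrier PEPT1, and Slc15a3 did not pass the filter, with at most 3 and 11 reads in a sample.

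The promoter of Slc15a2 is printed because that gene had the largest difference. That of Slc36a1 is printed because it was the only member called lower, and that of Slc7a11 because it holds 2 copies of an amino acid response element, the core of which (TGATGNAAN) is bound by ATF4 and related factors when amino acids run short. Each is the 250 bases before the RefSeq start site on GRCm38.p6, written 5′ to 3′ in the direction of the gene. Capitals mark matches on either strand to TGATGNAAN in Slc7a11 and to CACGTG, the core bound by TFEB and other E-box factors, in Slc36a1; Slc15a2 had neither in this window. The second motif was searched after the values had been seen.
Slc15a2, chr16:36784963-36785212, minus strand: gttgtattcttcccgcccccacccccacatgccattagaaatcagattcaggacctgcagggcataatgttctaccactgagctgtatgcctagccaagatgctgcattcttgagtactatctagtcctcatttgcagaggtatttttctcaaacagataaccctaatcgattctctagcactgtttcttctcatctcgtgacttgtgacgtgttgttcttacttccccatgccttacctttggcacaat
Slc36a1, chr11:55204090-55204339, plus strand: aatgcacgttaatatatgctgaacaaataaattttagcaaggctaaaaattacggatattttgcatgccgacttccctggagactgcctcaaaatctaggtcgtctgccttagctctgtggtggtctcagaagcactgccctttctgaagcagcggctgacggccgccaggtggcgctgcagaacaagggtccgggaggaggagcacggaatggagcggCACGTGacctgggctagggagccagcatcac
Slc7a11, chr3:50443614-50443863, minus strand: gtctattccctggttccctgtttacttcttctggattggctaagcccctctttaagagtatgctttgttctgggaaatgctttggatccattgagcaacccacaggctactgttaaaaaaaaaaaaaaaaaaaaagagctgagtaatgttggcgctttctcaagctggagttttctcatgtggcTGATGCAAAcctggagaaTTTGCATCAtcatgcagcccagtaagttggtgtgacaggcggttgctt
Promoters were at hand for 54 members (78 promoters, each of 300 bases around the start). TGATGNAAN was in 6 of these 78 (7.69%), from Slc1a4, Slc7a7, Slc7a11, Slc15a5 and Slc17a1, beside 3.95% of 32851 promoters of all genes. None of those 5 members was called. Only 4 of the 10 called members had a promoter at hand, and none of those 4 held TGATGNAAN in the window. Sequence outside the 300 bases was not searched, so elements elsewhere in these genes would be missed. CACGTG was in 10 of 78 (12.8%), beside 7.15% of all promoters. No match of one motif overlapped a match of the other in the promoters printed.

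Family 7 holds the cationic amino acid carriers and the light chains of the heteromeric exchangers, and 1 of its 12 tested members was called. Slc7a2 (ENSMUSG00000031596, chr8:40862396-40922308, plus strand) encodes CAT-2, which takes up arginine, lysine and ornithine. It was at 87.3, 87.3, 82.97 and 92.2 CPM in wild types 1, 3, 4 and 8, and 140.4, 131, 121 and 149.6 CPM in mutants 1 to 4. The lowest mutant was well above the highest wild type, and the wild types lay close together. Group means were 87.4 ± 3.77 CPM in wild type and 136 ± 12.2 CPM in mutant (SD, n = 4 each), with a log2 difference of 0.63 (SE 0.0691, limma adjusted p = 0.000182). This was the smallest adjusted p of any member, and it stayed under 0.05 in every alternative, at most 0.0272. Its exons share 635 bases with those of Gm26584 on the other strand, and the use of strand in counting is not given in the sources used here. Short stretches of Slc7a2 transcripts are also near-identical to transcripts of other genes.

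The other arginine carriers of family 7 were not called. Slc7a1 (CAT-1), the main constitutive carrier, was at 192, 191, 197 and 197 CPM in wild types 1, 3, 4 and 8, and 196, 189, 180.3 and 146 CPM in mutants 1 to 4. Its log2 difference was -0.14 (95% CI -0.30 to 0.03, adjusted p = 0.334), and mutant 4 was the lowest sample. Slc7a3 (CAT-3) ranged over 3.66 to 6.67 CPM in wild type and 2.29 to 4.62 CPM in mutant (-0.28, 95% CI -0.80 to 0.25). Slc7a14, a related lysosomal protein and among the highest members per kilobase, was at 297 to 327 CPM in wild type and 279.9 to 309 CPM in mutant (-0.08, 95% CI -0.20 to 0.03).

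Among the light chains, which pair with a heavy chain of family 3, none was called. Slc7a7 (y+LAT1), which exports cationic amino acids, was at 64.8, 64.5, 60.005 and 73.6 CPM in wild types 1, 3, 4 and 8, and 48.7, 59.03, 51.1 and 58.5 CPM in mutants 1 to 4. All mutants were below all wild types, with a log2 difference of -0.27 that missed the threshold (adjusted p = 0.0702). It passed under median centring, at 0.0151, and without wild type 4, at 0.0476. Slc7a8 (LAT2), a carrier of large and small neutral amino acids, was at 45.6 to 51.3 CPM in wild type and 35.8 to 46.2 CPM in mutant (-0.19, adjusted p = 0.214). Slc7a5 (LAT1), the carrier of leucine and other large neutral amino acids, was at 53.4 to 56.99 CPM in wild type and 51.1 to 71.6 CPM in mutant (0.16, 95% CI -0.03 to 0.35). Its heavy chain Slc3a2 had a log2 difference of 0.19 (adjusted p = 0.121). Slc7a11, the cystine-glutamate exchanger xCT, was at 5.08, 2.51, 16.1 and 3.79 CPM in wild types 1, 3, 4 and 8, and 4.93, 5.98, 6.16 and 7.01 CPM in mutants 1 to 4. Wild type 4 was far above all other samples, and the groups overlapped. The remaining tested members of the family, none of them called, averaged 20.5 CPM (Slc7a4), 29.7 CPM (Slc7a6, or y+LAT2), 0.728 CPM (Slc7a10, a carrier of small neutral amino acids) and 1.86 CPM (Slc7a15) over the 8 samples, and Slc7a9, Slc7a12 and Slc7a13 did not pass the filter.

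Family 1 carries glutamate and neutral amino acids. One of its 6 tested members, Slc1a5 (ENSMUSG00000001918, chr7:16781340-16798274, plus strand), was called; it encodes ASCT2, a sodium-dependent exchanger of glutamine and other neutral amino acids. It was at 33.2, 30.9, 26.7 and 29.4 CPM in wild types 1, 3, 4 and 8, and 64.1, 57.6, 34.3 and 41.8 CPM in mutants 1 to 4. Mutants 1 and 2 were far above the wild types, whereas mutant 3 was only just above the highest of them. Group means were 30.1 ± 2.73 CPM in wild type and 49.4 ± 13.8 CPM in mutant (SD, n = 4 each), and the log2 difference was 0.67 (SE 0.154, limma adjusted p = 0.0203). The call was lost without mutant 1 (adjusted p = 0.0617) and without mutant 2 (0.0638).

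The glutamate carriers proper did not pass the test. Slc1a3 (GLAST), a glial glutamate carrier, was at 12.4, 13.5, 11.7 and 15.3 CPM in wild types 1, 3, 4 and 8, and 15.8, 15.04, 14.5 and 16.02 CPM in mutants 1 to 4. The ranges overlapped through wild type 8, with a log2 difference of 0.22 (95% CI -0.03 to 0.46, adjusted p = 0.295). Slc1a2 (GLT-1), the other glial glutamate carrier, was at 21.3, 20.04, 28.3 and 48.9 CPM in wild types 1, 3, 4 and 8, and 24.1, 38.7, 22.02 and 38.04 CPM in mutants 1 to 4. The highest sample was a wild type, and the difference of 0.10 had a wide interval (-0.42 to 0.62). Slc1a1 (EAAC1), the neuronal carrier, had 3.65 to 4.13 CPM in wild type and 3.54 to 5.01 CPM in mutant (0.14, 95% CI -0.23 to 0.52). Slc1a6 had 5.33 to 8.77 CPM in wild type and 5.29 to 6.31 CPM in mutant (-0.16, 95% CI -0.54 to 0.21). Slc1a4 (ASCT1), an alanine, serine and cysteine exchanger and the highest of the family, was at 81.4 to 97.3 CPM in wild type and 77.7 to 88.6 CPM in mutant (-0.04, 95% CI -0.19 to 0.12). Slc1a7 did not pass the filter, with 1 to 4 reads a sample.

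Family 6, the sodium- and chloride-dependent transmitter and osmolyte carriers, had 12 tested members of 18, with 2 called, both higher. Slc6a6 (ENSMUSG00000030096, chr6:91684053-91759066, plus strand), the taurine carrier, was at 42.5, 46.7, 49.04 and 35.4 CPM in wild types 1, 3, 4 and 8, and 71.6, 67.1, 51.7 and 64.1 CPM in mutants 1 to 4. The lowest mutant, mutant 3, was just above the highest wild type. Group means were 43.4 ± 6.01 CPM in wild type and 63.6 ± 8.50 CPM in mutant (SD, n = 4 each), and the log2 difference was 0.55 (SE 0.111, limma adjusted p = 0.0112). Slc6a6 shares 117 exonic bases with Gm44981 on the other strand.

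Of the GABA carriers, Slc6a11 was at 6.83 to 13.6 CPM in wild type and 8.07 to 10.997 CPM in mutant, without a call. Slc6a13 (GAT-2) and Slc6a12 (the betaine and GABA carrier BGT1) were also not called.

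Slc6a8, the creatine carrier on chromosome X, fell just outside the threshold. It was at 50.6, 49.1, 49.5 and 50.5 CPM in wild types 1, 3, 4 and 8, and 61.5, 61.3, 52.5 and 64.6 CPM in mutants 1 to 4. The 4 wild types lay close together and below every mutant, and the log2 difference was 0.26 (SE 0.0732, limma adjusted p = 0.0535). It was called with sample weights (0.0460) and without mutant 3 (0.0144). On the other side of the threshold stood Slc36a2, at 0.0491.

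Slc6a7, the brain proline carrier, was higher in every mutant than in any wild type (3.41 to 5.08 CPM in wild type and 5.23 to 7.58 CPM in mutant), but its log2 difference of 0.49 did not pass (adjusted p = 0.140). Slc6a17, a synaptic vesicle carrier of neutral amino acids and the highest of the family per kilobase, was at 355 to 402 CPM in wild type and 377 to 391 CPM in mutant (0.05, 95% CI -0.07 to 0.16). Slc6a15, a carrier of branched-chain amino acids and proline, was at 125 to 141 CPM in wild type and 124 to 149 CPM in mutant (0.06, 95% CI -0.09 to 0.20). The sign of both differences turned under median centring. Slc6a19 was at 19.1 to 26.1 CPM in wild type and 20.2 to 24.8 CPM in mutant, and Slc6a9, the glycine carrier GlyT1, at 3.18 to 4.89 CPM in wild type and 3.07 to 4.004 CPM in mutant. The carriers of noradrenaline (Slc6a2) and serotonin (Slc6a4) had at most 9 and 8 reads in a sample, and that of dopamine (Slc6a3) had none.

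The vesicular carriers of families 17, 18 and 32 had no call among 7 tested members, beside 5.46% called over all tested genes. Slc17a6 (VGLUT2), which loads glutamate into vesicles and marks most sensory neurons, was at 258, 278, 268 and 276 CPM in wild types 1, 3, 4 and 8, and 269, 277, 285 and 292 CPM in mutants 1 to 4. The groups overlapped, and the log2 difference was 0.06 with a 95% confidence interval of -0.05 to 0.17. Slc17a7 (VGLUT1), found mostly in large sensory neurons, was at 162 to 209 CPM in wild type and 186 to 210.2 CPM in mutant (0.08, 95% CI -0.07 to 0.24). Slc17a8 (VGLUT3), found in C-fibre mechanoreceptors, was at 15.3 to 22.5 CPM in wild type and 16.2 to 18.6 CPM in mutant (-0.04, 95% CI -0.30 to 0.22). The differences of Slc17a6 and Slc17a7 turned below 0 under median centring, at -0.04 and -0.01. Slc17a5 (sialin), the lysosomal sialic acid exporter, was below every wild type in every mutant (31.2 to 33.3 CPM in wild type and 26.1 to 30.3 CPM in mutant) with a log2 difference of -0.14 that was not called (95% CI -0.31 to 0.03). Slc18a2 (VMAT2) and Slc18a1 (VMAT1), the vesicular monoamine carriers, differed by 0.10 (95% CI -0.21 to 0.41) and -0.04 (95% CI -0.48 to 0.39). Slc32a1, which loads GABA and glycine into vesicles, was at 0 to 1.89 CPM in wild type and 0.154 to 1.14 CPM in mutant. Slc18a3, the acetylcholine carrier, had at most 5 reads in a sample and Slc17a9, a vesicular nucleotide carrier, at most 3.

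Family 36, the proton-coupled amino acid carriers, had calls in opposite directions. Slc36a1 (ENSMUSG00000020261, chr11:55204350-55236330, plus strand) encodes PAT1, also called LYAAT1, which moves glycine, alanine and proline out of lysosomes and across the cell surface. It was at 558, 543, 571 and 501 CPM in wild types 1, 3, 4 and 8, and 429, 455, 458 and 392 CPM in mutants 1 to 4. Every mutant was below every wild type. Group means were 543 ± 30.5 CPM in wild type and 434 ± 30.8 CPM in mutant (SD, n = 4 each), and the log2 difference was -0.33 (SE 0.0622, limma adjusted p = 0.00820). With the largest counts of any member (2740 to 4338 reads), counting error is small here, yet without the variance trend the adjusted p was 0.0951.

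Slc36a2 (ENSMUSG00000020264, chr11:55158470-55185077, minus strand), or PAT2, a carrier of glycine, alanine and proline at the cell surface, lies 19273 bases from Slc36a1 on the other strand. It was at 11.9, 10.9, 15.9 and 10.7 CPM in wild types 1, 3, 4 and 8, and 18.8, 15.7, 15.6 and 20.2 CPM in mutants 1 to 4. Wild type 4 lay inside the mutant range, so the groups overlapped. Group means were 12.3 ± 2.39 CPM in wild type and 17.6 ± 2.30 CPM in mutant (SD, n = 4 each), and the log2 difference was 0.51 (SE 0.140, limma adjusted p = 0.0491). Its level was far below that of Slc36a1 in every sample. Slc36a4, the third tested member, was at 68.3 to 73.6 CPM in wild type and 64.1 to 78.7 CPM in mutant (-0.03, 95% CI -0.17 to 0.12), and Slc36a3 had no reads.

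Family 38, the sodium-coupled neutral amino acid carriers, which move glutamine between glia and neurons among other tasks, had 2 of 9 tested members called, both higher. Slc38a2 (ENSMUSG00000022462, chr15:96687392-96699730, minus strand), or SNAT2, whose RNA is known to be induced when amino acids are short, was at 415, 454, 398 and 374 CPM in wild types 1, 3, 4 and 8, and 489, 491, 448 and 519 CPM in mutants 1 to 4. Wild type 3 lay inside the mutant range. Group means were 410.3 ± 33.5 CPM in wild type and 487 ± 29.3 CPM in mutant (SD, n = 4 each), and the log2 difference was 0.25 (SE 0.0651, limma adjusted p = 0.0385). It was lost under median centring (0.270). Its neighbour Slc38a1 (SNAT1), a neuronal glutamine carrier 44479 bases away, was at 88.3 to 95.1 CPM in wild type and 93.8 to 98.5 CPM in mutant (0.07, 95% CI -0.05 to 0.19), with the sign turned under median centring.

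Slc38a11 (ENSMUSG00000061171, chr2:65316430-65364034, minus strand), a member without a well-described substrate, was at 1.91, 2.13, 1.78 and 2.27 CPM in wild types 1, 3, 4 and 8, and 3.73, 3.23, 3.85 and 3.43 CPM in mutants 1 to 4. The groups did not overlap, with a log2 difference of 0.74 (SE 0.196, limma adjusted p = 0.0414), but these are 12 to 25 reads per sample and 6 of the 20 alternatives called it. Slc38a6 was at 5.05 to 7.30 CPM in wild type and 7.72 to 10.5 CPM in mutant (0.56, adjusted p = 0.0552), and every mutant was above every wild type. Its value is uncertain, since its transcripts share long near-identical stretches with other genes (98.5% identity over 3240 bases with Noct). Slc38a9, the lysosomal arginine sensor of the mTORC1 pathway, was at 83.7 to 87.6 CPM in wild type and 76.9 to 89.3 CPM in mutant (-0.03, 95% CI -0.16 to 0.11), and Slc38a10 at 142 to 158 CPM in wild type and 139 to 146 CPM in mutant (-0.07, 95% CI -0.18 to 0.05). Slc38a8 had 1.27 to 2.02 CPM in wild type and 0.770 to 1.29 CPM in mutant (-0.52, 95% CI -1.10 to 0.05), a wide interval. Slc38a3 (SNAT3), a glutamine exporter of glia, was at 0.476 to 1.93 CPM in wild type and 0.770 to 1.86 CPM in mutant, and Slc38a7, a lysosomal glutamine carrier, at 46.3 to 50.9 CPM in wild type and 42.2 to 52.6 CPM in mutant. Slc38a4 and Slc38a5 did not pass the filter.

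In family 43 all 3 members were tested and 1 was called. Slc43a3 (ENSMUSG00000027074, chr2:84936579-84958509, plus strand), which is known to carry purine nucleobases and not amino acids, was at 37.8, 38.5, 35.1 and 35.4 CPM in wild types 1, 3, 4 and 8, and 46.5, 51.6, 39.7 and 58.2 CPM in mutants 1 to 4. Mutant 3 was barely above the wild types, which lay close together. Group means were 36.7 ± 1.69 CPM in wild type and 48.99 ± 7.83 CPM in mutant (SD, n = 4 each), and the log2 difference was 0.40 (SE 0.101, limma adjusted p = 0.0322). Slc43a2 (LAT4), a facilitative carrier of leucine, isoleucine, methionine and phenylalanine, was at 122 to 134 CPM in wild type and 134 to 157 CPM in mutant (0.15, adjusted p = 0.178). Slc43a1 (LAT3), of the same kind, was at 1.52 to 3.65 CPM in wild type and 2.75 to 4.72 CPM in mutant (0.44, 95% CI -0.10 to 0.99).

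Exons of some uncalled members also overlap another gene on the other strand, among them Slc7a7 (232 bases with Oxa1l), Slc43a2 (922 bases with Gm45606) and Slc1a1 (2631 bases with 4430402I18Rik). If counting ignored strand, the reads of such partners cannot be told apart.

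The 21 members not tested were the ones with few or no reads. No reads were counted in any sample for 9 of them (Slc6a3, Slc6a14, Slc6a18, Slc7a12, Slc17a1, Slc17a2, Slc17a3, Slc17a4 and Slc36a3). The other 12 had at most 11 reads in a sample. In 14 of the 21 no sample had more than 3 reads, the floor used here, so their expression was not detectable at this depth.

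The 9 members called higher did not all share 1 order among the mutants, but most had the same lowest mutant. Mutant 3 was the lowest mutant in 7 of them. Slc15a2 was lowest in mutant 1, and Slc38a11 was lowest in mutant 2 and highest in mutant 3. Mutant 4 was the highest in 5 of the 9 and mutant 1 in 3. Mutant 3 also had the lowest sums among the mutants for satellite glia (2668 CPM, against 3149.8 or more in the other mutants), fibroblasts (810.2 CPM against 1000.9 or more), sheath cells (122 CPM against 215 or more) and macrophages (73.4 CPM against 85.5 or more). Apoe, the largest part of the satellite glia sum, was at 1372 CPM in mutant 3 and 1575 CPM or more in the other mutants. The endothelial sum was lowest in mutant 3 too (72.1 CPM, against 88.3 or more). So were those of large neurofilament neurons (7045 CPM against 7265 or more) and peptidergic neurons (1151 CPM against 1188 or more). NP3 markers did likewise (457.8 CPM against 463 or more). For NP1 and C-fibre mechanoreceptor markers mutant 3 was the highest mutant (1135 and 421 CPM). In the pan-neuronal sum mutant 1 was the lowest (9561 CPM). Satellite glia markers were called higher in 2 of 9, sheath markers in 2 of 9 (Cldn1 and Cldn11), fibroblast markers in 1 of 7 (Dcn) and macrophage markers in 1 of 8 tested (Cd163). Over all tested genes, 2.81% were called higher and 64.4% of differences were above 0. Myelinating Schwann cell markers were called higher in 2 of 9, with 8 of 9 differences above 0, a median log2 difference of 0.31, and sums of 2460.1 to 3229 CPM in wild type and 2915 to 3518 CPM in mutant. There the lowest mutant was mutant 2, and mutant 3 was at 3224 CPM. The part of these cell types in the called members was not tested. Without mutant 3, 9 members were still called higher, 8 of them the same genes, with Slc6a8 in place of Slc38a11.

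Some members varied more within a genotype than between genotypes. These were picked after their values were seen. Slc6a13 was at 8.26, 6.51, 15.1 and 2.53 CPM in wild types 1, 3, 4 and 8, and 8.22, 7.28, 6.47 and 14.2 CPM in mutants 1 to 4. Wild type 4 and mutant 4 were the highest, as they were in the summed sheath markers (303 CPM and 329 CPM, against 87.1 to 268 CPM in the other samples). Slc6a12 and Slc7a11 were also highest in wild type 4. Slc1a2, Slc6a5 (the glycine carrier GlyT2) and Slc32a1 had another order in common. Slc6a5 was at 0.794, 0.376, 2.07 and 5.56 CPM in wild types 1, 3, 4 and 8, and 0.896, 2.91, 0.770 and 4.004 CPM in mutants 1 to 4. These 3 were highest in wild type 8, and mutants 2 and 4 came next in either order. Slc6a5 and Slc32a1 mark inhibitory neurons of the spinal cord, and Gfap, an astrocyte marker also found in reactive satellite glia, ranged from 2.88 to 16.3 CPM without peaking in wild type 8. Among oligodendrocyte markers, Olig1 had 1, 2, 6 and 10 reads in wild types 1, 3, 4 and 8, and 1, 8, 2 and 8 reads in mutants 1 to 4, the same samples being high. Olig2 did not share this order. It had 0, 0, 5 and 0 reads in wild types 1, 3, 4 and 8, and 2, 2, 1 and 1 reads in mutants 1 to 4. Mog had 2, 1, 7 and 7 reads in those wild types and 6, 2, 1 and 7 in the mutants, and Opalin had none in any sample. The whole list of central nervous system markers summed to 158 to 179.9 CPM in wild type and 176 to 202 CPM in mutant. Most of each sum was 1 gene, Slc4a4, at 127 to 141 CPM in wild type and 139 to 157 CPM in mutant. Aqp4, which is in the satellite glia list too, was at 17.04 to 21.6 CPM and 19.9 to 23.1 CPM. In the whole list 6 of 6 tested differences were above 0, beside 64.4% of all tested genes, and none was called. The part of spinal cord or sheath tissue in these values was not tested.

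**Figure D4:**
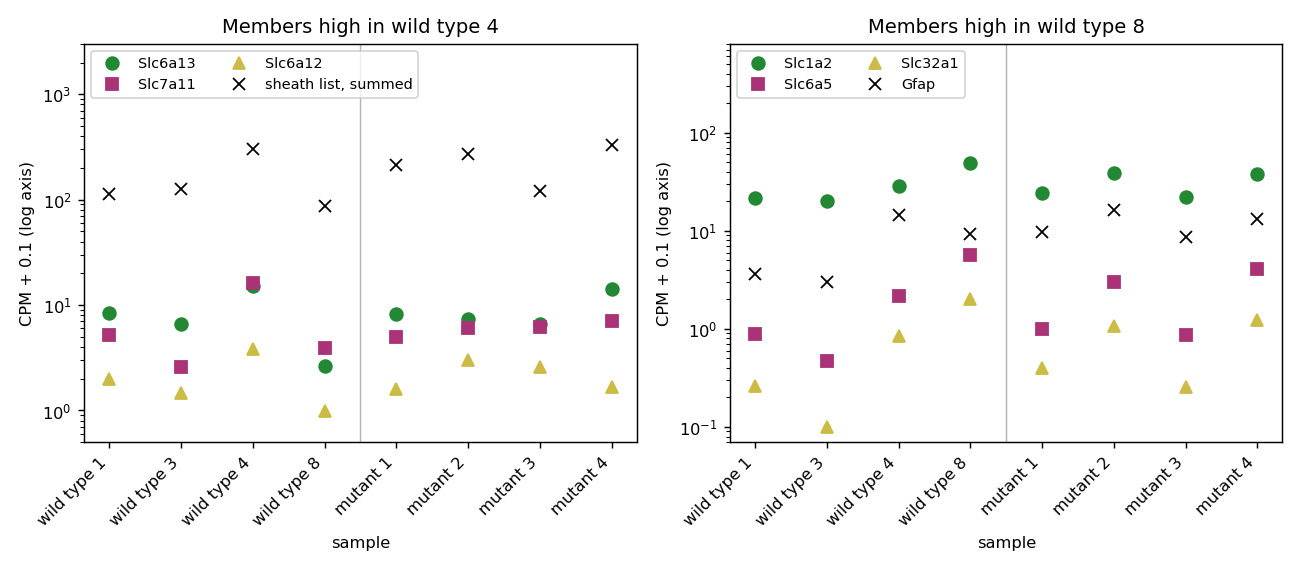
CPM plus 0.1 on a log axis, by sample, for members chosen after their values were seen: left, Slc6a13, Slc7a11 and Slc6a12 with the summed sheath cell markers; right, Slc1a2, Slc6a5 and Slc32a1 with Gfap. The left members peak in wild type 4 and the right ones in wild type 8.

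Genes that work with these carriers were called at shares to be read against the 5.46% of all tested genes. Among 13 tested enzymes of glutamate, glutamine and GABA metabolism, 1 was higher and none lower, with a median log2 difference of 0.09. It was Glul, glutamine synthetase of satellite glia, at 386 ± 28.4 CPM in wild type and 549 ± 87.4 CPM in mutant (SD, n = 4 each), a log2 difference of 0.49 (SE 0.0977, limma adjusted p = 0.0101). Of 21 tested genes of the ATF4 amino acid response, 1 was higher and none lower, with a median of 0.12. It was Ddit4, an inhibitor of mTORC1, with a log2 difference of 0.54 (adjusted p = 0.00397). Of 13 tested peptide-splitting enzymes, whose products feed peptide carriers, 1 was higher: Mme, or neprilysin, with a log2 difference of 0.74 (adjusted p = 0.00210). None of 10 tested genes for monoamine and acetylcholine synthesis and breakdown and none of 6 for glutathione synthesis was called. These lists had medians of -0.01 and 0.10, beside 0.07 over all tested genes.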

How the data were processed

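Total RNA from the ganglia of 4 wild-type and 4 mutant mice was sequenced. One deposited table holds the authors' moderated log2 CPM (library-scaled counts with a small prior count, on a log2 scale), per the file headers and values. It had 41422 lines and 40800 distinct genes, and repeated identifiers carried the same values. Per the submitters' processing notes, Salmon 0.11.1, DESeq2 and the build mm9 were used, with no role given. The annotation release and the use of strand are not given in the sources used here. All deposited values gave whole reads within 0.1 read, so CPM and reads were recovered from them.

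Columns were assigned to samples through their names, which hold genotype and number. A running number of unknown meaning is also in each name, and a batch along it cannot be told apart from genotype. The labels do not say that samples of 1 group came from separate litters, so it is not known whether the samples are independent. The p-values set each group difference against the spread between these samples. The test was limma 3.58.1 in R 4.3.3 (two-sided, empirical Bayes with a variance trend) on the deposited log2 values of the 15030 genes with log2 CPM above 0 in at least 4 samples, adjusted over all of them by Benjamini-Hochberg. It was tested on simulated counts with 200 genes changed 2-fold and a dispersion of 0.02, a set value not estimated from these data. There 161 of the 200 were called in the right direction, and 14 unchanged genes were called too. Every called member but Slc15a2 changed by less than 2-fold, so this recovery does not carry over to such members. With no gene changed, 0 of 15085 were called. Levels per kilobase, positions and overlaps used GENCODE M21 (GRCm38), matched by Ensembl identifier, and near-identical transcripts were sought with blastn 2.17.0. Alternatives covered the filter, an added 1 CPM, scaling, variance model, voom on recovered reads, weights, Xist, left-out samples, a replicate block and the thresholds.

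The members and lists were chosen with earlier results of these data known. Named with values were the called members, those with an unadjusted p under 0.05, the highest of each family and members with a transmitter or nutrient role. Sex was read from Xist and entered only as an alternative. The numbers 1, 3 and 4 occur in both genotypes, and their deviations correlated at 0.081, 0.041 and 0.058, so they were not treated as pairs. With 4 against 4 samples, an exact permutation test of a single gene cannot go below p = 0.0286. One called member and one marker gene enter the counts and are not reported here by name.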

Additional observations from a re-analysis of the deposited data

Results flagged for a closer look

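A sample stood apart from the other 3 of its group by Dixon's criterion in 2 of 110 group checks over the tested members, and chance flags about 1 in 20, or 5.5 of 110. In wild type, Slc1a4 was at 6.61 log2 CPM in wild type 3, against 6.35 to 6.39 in the other wild types. In mutant, Slc17a5 was at 4.72 log2 CPM in mutant 1, against 4.92 to 4.94 in the other mutants. Neither member was called.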

How the results depend on the processing

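No called member changed sign in any of the 20 alternatives. Beside the 9 members called higher and 1 lower, median centring gave 5 and 2, and no variance trend gave 2 and 0 (Slc7a2 and Slc38a11). A replicate block on the 6 samples of shared number gave 4 higher and 1 lower, and an unblocked fit to those 6 gave 2 higher and 1 lower. The numbers were not shown to pair the samples. Leaving out each sample gave 3 to 9 higher and 1 to 2 lower, while higher calls over all genes ran from 171 to 571. An adjusted p under 0.1 gave 2 lower, and a log2 difference of at least 0.5 gave 0 lower. Among the higher calls, the first limit added Slc6a8 and Slc38a6, and the second dropped Slc38a2 and Slc43a3. Uncalled members near 0 turned sign. Median centring did so for Slc6a15 (-0.034), Slc6a17 (-0.045), Slc17a6 (-0.036), Slc17a7 (-0.0078) and Slc38a1 (-0.020), and quantile normalization for Slc1a1 (-0.0062) and Slc18a2 (-0.0080). With 1 sample left out at a time, the log2 difference ran from -0.055 (wild type 3) to 0.369 (wild type 8) in Slc1a2, from -0.064 (mutant 2) to 0.024 (wild type 3) in Slc1a4 and from -0.097 (mutant 2) to 0.041 (wild type 1) in Slc15a4. It ran from -0.112 (wild type 4) to 0.073 (wild type 1) in Slc17a8, from -0.154 (wild type 4) to 0.058 (mutant 3) in Slc18a1, from -0.080 (mutant 4) to 0.019 (mutant 3) in Slc36a4 and from -0.057 (mutant 2) to 0.014 (mutant 4) in Slc38a9. The cause was not tested. Low read counts limit Slc38a11, Slc15a2 and the untested members.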
